A study of Mus musculus with 8 samples.

Results

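The *Period* genes *Per1*, *Per2* and *Per3* and the *Cryptochrome* genes *Cry1* and *Cry2* were examined for binding of the glucocorticoid receptor (GR) and of the forkhead factor FOXO1 in mouse liver. GR peaks of 6 chromatin immunoprecipitation sequencing (ChIP-seq) libraries were merged where they overlapped into 51431 sites. A site was assigned to a gene when its centre lay within 50 kb of the gene start in the GENCODE M21 annotation of mm10. This gave 61 sites, 25 at *Per1*, 15 at *Per2*, 3 at *Per3*, 5 at *Cry1* and 13 at *Cry2*. Of 8068 FOXO1 regions, 10 were centred in the same windows.

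PER and CRY proteins are the negative limb of the circadian clock. They enter the nucleus together and repress the activator CLOCK-BMAL1, which drives their own genes through E-box sequences, so that their abundance rises and falls each day. PER1 and PER2 set the pace of this loop with the casein kinases, PER3 is a modulator, and CRY1 and CRY2 are the repressors proper. In the liver the loop is also entrained by hormones and meals. Glucocorticoids act through GR, a nuclear receptor that binds palindromic glucocorticoid response elements (GREs), and *Per1* is a classic immediate target. FOXO1 is kept out of the nucleus by insulin and becomes active in fasting.

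All livers came from adult male C57BL/6J mice and were collected at the onset of the dark phase, when the glucocorticoid rhythm peaks. The ctrl. mice had free access to food until the final week, when they were fed at night only (labelled NR). The cal. res. mice were calorically restricted over several weeks (CR). The CORT mice were fed at night for a week and injected daily with corticosterone, the main glucocorticoid of mice (NR+CORT). Each group had 2 libraries. FOXO1 was precipitated in cal. res. livers only, and the authors merged 2 libraries before calling peaks, so FOXO1 values carry no replicate spread and say nothing of the other groups. Whole liver was used, so cell types were not separated: all 8 hepatocyte markers checked had a site with a peak in both libraries of every group, and the 4 Kupffer cell markers had none in any group. Markers of other cell types did have such sites, in ctrl., cal. res. and CORT in turn at 2, 2 and 3 of 4 endothelial, 1, 1 and 1 of 4 stellate cell, 1, 1 and 2 of 3 cholangiocyte and 3, 2 and 3 of 3 T and B cell markers.

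The lists differed in length, and the values have to be read with this in mind. Distinct regions numbered 36234 and 12458 for ctrl. replicates 1 and 2, 22707 and 18747 under cal. res. and 29473 and 39136 under CORT. Read totals were not analysed here. The fold enrichment that the peak caller gave each summit, its pileup of fragments over the local background, was therefore turned into a percentile within its own list, from 0 for the weakest to 100 for the strongest region. Library names followed one style in ctrl. replicate 1 and both CORT libraries, and another in ctrl. replicate 2 and both cal. res. libraries. The labels do not say what the style marks, and style and group cannot be told apart between cal. res. and CORT. With 2 libraries against 2 the exact permutation test cannot give a p below 0.333, so no group difference here could pass a common threshold.

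The strongest GR binding at any of the 5 genes lay inside *Per1* (chr11:69095217-69109960, plus strand, ENSMUSG00000020893.17). Its leading site, chr11:69094542-69100549, had a peak in all 6 lists and ran over the gene start and 3 downstream transcript starts. Rows of the lists whose summits lay within 100 bp of each other were therefore grouped, a step chosen after seeing the data, and 4 such summit groups were present in all 6 lists. The windows around 2 of them are shown because each held a palindrome of 2 AGAACA hexamers that face each other across 3 bases, the form of a GRE, with 1 mismatch (capitals, hexamers; mm10, plus strand).

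Per1 intron, +1.9 kb, chr11:69096979-69097178: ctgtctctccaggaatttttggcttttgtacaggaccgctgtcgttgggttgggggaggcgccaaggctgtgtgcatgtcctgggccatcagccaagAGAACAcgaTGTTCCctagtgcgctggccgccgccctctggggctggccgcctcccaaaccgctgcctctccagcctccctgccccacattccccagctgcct
Per1 intron, +4.2 kb, chr11:69099315-69099514: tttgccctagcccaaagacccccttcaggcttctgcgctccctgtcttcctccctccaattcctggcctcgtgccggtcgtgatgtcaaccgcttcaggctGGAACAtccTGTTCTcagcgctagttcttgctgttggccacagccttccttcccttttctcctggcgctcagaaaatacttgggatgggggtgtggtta

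In the +1.9 kb window the 6 summits fell within 21 bp of each other, and the middle of the palindrome lay 5 bp from their median. In the +4.2 kb window they fell within 25 bp, and the palindrome lay 9 bp from the median. Both palindromes lay in introns of *Per1*. In the 200 bp around the strongest summit, 0.642% of all GR sites had a palindrome with at most 1 mismatch. Of the 8097 sites present in all 6 lists, 1.42% had such a palindrome. Among the 61 sites at the 5 genes, the leading *Per1* site was the 1 that had it.

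Fold enrichment at the +1.9 kb *Per1* summit was 124 and 65.3 under ctrl., 123 and 86.6 under cal. res. and 116 and 173 under CORT. The site ranked 6th and 8th of all regions in the ctrl. lists, 13th and 22nd in cal. res. and 9th and 12th in CORT. It was thus among the strongest GR sites of the liver in every library, and of all 21938 protein-coding genes at most 0.187% had a site as high in any list. Its within-list percentile separated neither cal. res. (exact permutation p = 0.667) nor CORT (exact permutation p = 1) from ctrl. Ranked among the 8097 sites in all 6 lists, a ranking chosen after seeing the data, both treated groups lay below both ctrl. libraries. The values were then 99.9321 and 99.9074 under ctrl., 99.8456 and 99.7345 under cal. res. and 99.895 and 99.858 under CORT. That order was not tested. The rebuilt number of fragments over this summit was 402 and 258 under ctrl., 472 and 343 under cal. res. and 256 and 642 under CORT, with no adjustment for read depth.

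**Figure D1:**
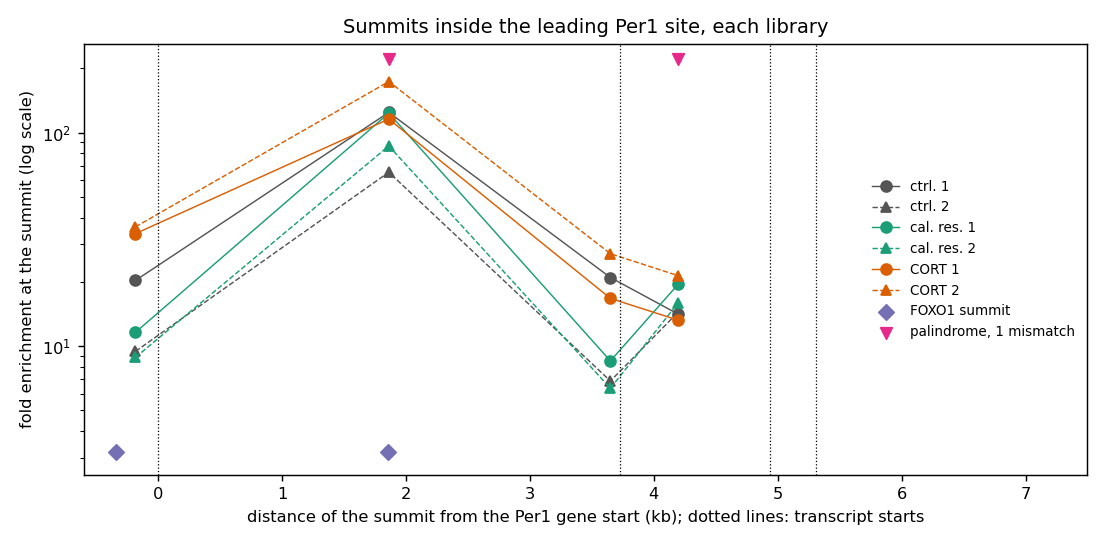
Fold enrichment (log scale) at the 4 summit groups that the leading Per1 site has in all 6 lists, against the distance of the summit from the gene start in kb, with 1 line per library. Inverted triangles mark the 2 summits with a palindrome of 1 mismatch, diamonds the 2 FOXO1 summits and dotted lines the transcript starts; the +1.9 kb summit is the highest in every library, between 65.3 and 173.

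The summits of *Per1* did not move together. At the summit 0.2 kb before the gene start, whose window holds an E-box (CACGTG), the fold enrichment was 20.3 and 9.46 under ctrl., 11.6 and 8.86 under cal. res. and 33.7 and 36.2 under CORT. At the +4.2 kb palindrome it was 14.1 and 14.4, 19.5 and 16.0, and 13.2 and 21.4. The start was thus above the palindrome in both CORT libraries and below it in both cal. res. libraries, and ctrl. had a library of each kind. A ratio of 2 summits within a library sets the length of its list aside. It still carries the local background at each summit, and read depth was not analysed. The start summit over the +4.2 kb summit was 1.44 and 0.655 under ctrl., 0.595 and 0.555 under cal. res. and 2.54 and 1.69 under CORT. Over the +1.9 kb summit it was 0.163 and 0.145, 0.0941 and 0.102, and 0.291 and 0.209. The 3 groups did not overlap in either ratio, with CORT highest and cal. res. lowest. Both ratios share the start summit, so they are not independent of each other. Ctrl. and CORT did overlap in the ratio of the start summit to the leading summit at the other genes where both could be read. It was 0.248 and 0.335 under ctrl., 0.236 and 0.236 under cal. res. and 1.54 and 0.301 under CORT at *Per2*, and 2.04 and 0.922, 0.535 and 0.683, and 0.751 and 1.89 at *Cry2*. At *Cry1* it was 0.558 and 0.852 under ctrl. and 1.23 and 0.218 under CORT, and 0.200 in the 1 cal. res. library with a start peak. The cal. res. values were the lowest at all 4 genes, at *Cry1* from 1 library only (0.200 against 0.218 in a CORT library). The share of start sites over all genes with such an order was not computed. These ratios were chosen after seeing the data and were not tested.

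The cal. res. libraries were the lowest at gene starts in general too. Among the 8097 sites in all 6 lists, ranked among themselves, the 2392 within 1 kb of a protein-coding start had a median percentile of 34.8 and 42.7 under ctrl., 25.2 and 26.5 under cal. res. and 48.5 and 40.2 under CORT. Ctrl. and CORT overlapped there. At the downstream *Per1* start, +3.6 kb, the ratio to the +4.2 kb summit was 1.48 and 0.476 under ctrl., 0.437 and 0.398 under cal. res. and 1.26 and 1.27 under CORT. This ratio and both ratios of the *Per1* start were higher in the 3 libraries of one name style than in the 3 of the other, with ctrl. replicate 1 on the side of CORT and ctrl. replicate 2 on that of cal. res. The part of library style in these ratios was not tested.

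**Figure D2:**
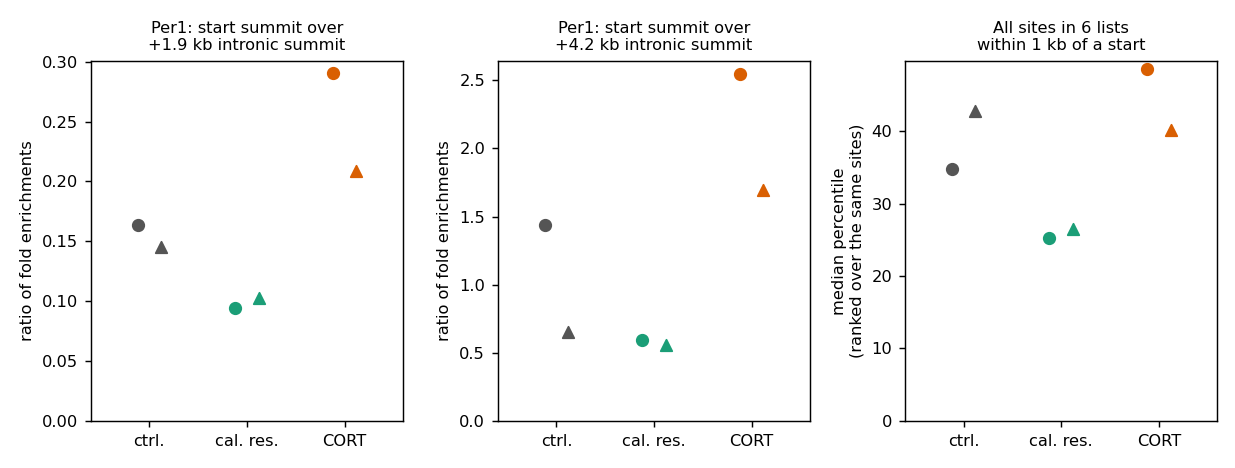
Left and middle, fold enrichment at the Per1 start summit divided by that at the 2 intronic palindromes, 1 point per library (circle, replicate 1; triangle, replicate 2). Right, median percentile of all sites within 1 kb of a start among the 8097 sites in all 6 lists; in each panel both cal. res. libraries are the lowest.

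The remaining 24 sites of the *Per1* window were weaker. The locus is gene-dense, with 7 other protein-coding starts in the window, and only 3 of its 25 sites had their strongest summit nearest to the *Per1* start. The other site in all 6 lists, chr11:69114183-69115318 at +19.7 kb, was intergenic and nearest to *Hes7*, with percentiles of 84.3 and 48.7 under ctrl., 28.3 and 34.1 under cal. res. and 37.2 and 66.1 under CORT. There cal. res. lay below ctrl. (exact permutation p = 0.333, the smallest possible). Of the 25 sites, 2 had a peak in both ctrl. libraries, 2 in both cal. res. libraries and 9 in both CORT libraries. The share of all GR sites was 21.4% (ctrl.), 27.9% (cal. res.) and 43.7% (CORT), each higher than at *Per1*. Genes with at least as many such sites made up 27.2%, 29.1% and 3.41% of all protein-coding genes, in the same order. As many sites of any kind, or more, lay at 0.383% of genes. A single list held 13 of the 25 sites, against 37.4% of all sites. FOXO1 had 2 regions at *Per1*, both inside the leading site. The stronger had its summit 0.34 kb before the gene start, with a fold enrichment of 13.6 (percentile 94.3 of the FOXO1 list), 68 to 256 bp from the nearest GR summit of the 6 lists. The weaker lay at the +1.9 kb palindrome, with a fold enrichment of 5.72 (percentile 48.8), and its summit was 5 to 12 bp from the GR summit in every list.

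*Per2* (chr1:91415982-91459324, minus strand, ENSMUSG00000055866.9) differed from *Per1* in that binding was spread along the gene. Of its 15 sites, 7 had a peak in all 6 lists, against 15.7% of all sites. Of these 7, 6 were strongest inside *Per2* or at its start. Among those 6, the sites at +38.5 kb and +22.7 kb were nearest to the start of *Hes6*, 6777 and 22558 bp away. Over all 15 sites, 10 had their strongest summit nearest to the *Per2* start. Sites are called held by a group if each of its 2 lists has a peak at them. At *Per2* this was so of 7 sites for ctrl. (as many or more at 1.19% of all genes), of 9 for cal. res. (0.634%) and of 8 for CORT (5.18%). The leading site, chr1:91436117-91437984, lay in an intron 22.7 kb into the gene and is shown by the 200 bp around its median summit. The closest match to the palindrome there had 3 mismatches and lay 63 bp from that summit (capitals mark the hexamers, minus strand).

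Per2 intron, chr1:91436453-91436652: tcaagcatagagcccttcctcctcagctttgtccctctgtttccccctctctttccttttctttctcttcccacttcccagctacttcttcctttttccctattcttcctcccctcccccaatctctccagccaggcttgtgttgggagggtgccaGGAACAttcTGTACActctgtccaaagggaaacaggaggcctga

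Around the strongest summit of a site, a match with up to 3 mismatches was present at 15.6% of all sites. By that measure this site had none: the fewest mismatches around its strongest summit were 5. That window held the motif TTCNNNGAA of STAT factors, which 8.15% of all sites had. Percentiles of the site were 99.7 and 98.6 under ctrl., 98.6 and 98.8 under cal. res. and 92.5 and 98.4 under CORT. Both CORT values were below the other 4 (mean 95.4 ± 4.16 against 99.1 ± 0.772 under ctrl., SD, n = 2 each; exact permutation p = 0.333). The fold enrichment in CORT was 18.7 and 34.9, against 48.8 and 18.0 under ctrl., values that can be compared only within a list. FOXO1 was bound there at percentile 73.2, 6 to 93 bp from the GR summit of each list.

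The intronic *Per2* site at +13.1 kb, chr1:91445803-91446624, was next in mean percentile, with values of 96.6 and 88.0 under ctrl., 95.5 and 93.4 under cal. res. and 97.5 and 96.4 under CORT. No FOXO1 region overlapped it. The site over the *Per2* start, chr1:91458280-91460022, had 87.8 and 76.4, 76.7 and 79.0, and 97.5 and 81.5, and the site at +3.4 kb, chr1:91454583-91457505, had 90.0 and 75.4, 77.6 and 74.7, and 89.0 and 94.5. FOXO1 overlapped both, at percentiles of 60.8 and 5.42. At +19.2 kb (chr1:91439504-91440586) both cal. res. and both CORT libraries had a peak, at 67.8 and 77.5 and at 26.1 and 83.8, and so did ctrl. replicate 1 at 93.2, while ctrl. replicate 2 had none. The site at -4.2 kb, chr1:91463383-91463838, was weak, with peaks in ctrl. replicate 1 (31.6) and both cal. res. libraries (25.9 and 21.3) and in neither CORT library.

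*Per3* (chr4:151003652-151044665, minus strand, ENSMUSG00000028957.12) had 3 sites, the same as the median protein-coding gene, and 2 of them were nearest to its own start. The leading site, chr4:151044245-151045657, peaked 0.2 kb before the gene start. Its window is shown because it held 2 D-boxes (capitals, TTATGTAA), the element bound by the clock output factors DBP, TEF, HLF and NFIL3.

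Per3 start, chr4:151044793-151044992, minus strand: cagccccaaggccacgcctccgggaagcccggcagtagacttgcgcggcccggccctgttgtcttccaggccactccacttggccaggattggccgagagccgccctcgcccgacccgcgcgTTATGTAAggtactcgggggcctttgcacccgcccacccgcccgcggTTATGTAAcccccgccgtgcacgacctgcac

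The nearer D-box was centred 3.5 to 33.5 bp from the GR summits of the 5 libraries with a summit there and 8.5 bp from the FOXO1 summit. A D-box was present in 0.819% of 32851 RefSeq promoters (250 bases before the start, GRCm38.p6) and near the summit of 1.53% of GR sites. Percentiles of the site were 92.1 and 3.45 under ctrl., 71.8 and 80.0 under cal. res. and 98.6 and 98.3 under CORT. Both CORT libraries lay above the other 4 (CORT 98.5 ± 0.231, ctrl. 47.8 ± 62.7, cal. res. 75.9 ± 5.83, SD, n = 2 each; exact permutation p = 0.333 for CORT against either). Cal. res. lay between the 2 ctrl. values, which were the widest apart of any leading site. FOXO1 had its only *Per3* region there, at a fold enrichment of 10.2 (percentile 87.2). The site at -13.4 kb, chr4:151057044-151058365, lay 118 bp from the start of *Vamp3*, in all 6 lists. The remaining site, at +1.2 kb, was held by CORT only.

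*Cry1* (chr10:85131700-85185064, minus strand, ENSMUSG00000020038.10) had no other protein-coding start in its window, and all 5 of its sites were nearest to its own start. The leading site, chr10:85189806-85190919, was intergenic, 5.1 kb upstream, and its window held 2 single AGAACA hexamers (capitals) and no palindrome with up to 3 mismatches. The sequence before the start is shown beside it, since a GR site and a FOXO1 region lie over it. It holds a forkhead motif (GTAAACA), an E'-box (CACGTT, here as AACGTG) and an E-box (CACGTG) in this order.

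Cry1 upstream, chr10:85190077-85190276, minus strand: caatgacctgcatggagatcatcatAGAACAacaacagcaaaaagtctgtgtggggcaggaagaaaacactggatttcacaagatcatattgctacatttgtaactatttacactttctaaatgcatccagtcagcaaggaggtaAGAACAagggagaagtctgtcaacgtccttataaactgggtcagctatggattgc
Cry1 promoter, chr10:85185065-85185304, minus strand: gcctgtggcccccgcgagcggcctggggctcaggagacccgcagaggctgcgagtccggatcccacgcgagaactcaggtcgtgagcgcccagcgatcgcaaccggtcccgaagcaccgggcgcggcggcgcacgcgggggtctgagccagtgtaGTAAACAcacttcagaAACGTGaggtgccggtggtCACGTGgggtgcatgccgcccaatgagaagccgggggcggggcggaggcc

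The upstream site had percentiles of 97.6 and 56.3 under ctrl., 88.2 and 94.4 under cal. res. and 92.4 and 93.3 under CORT. The 4 cal. res. and CORT values lay between the 2 ctrl. values, so no group stood apart. FOXO1 had its strongest region of the 5 genes there, at a fold enrichment of 15.7 (percentile 96.4, rank 293 of 8068), with the summit 8 to 37 bp from the GR summit of each list. The FOXO1 region at the *Cry1* start was nearly as strong, at 14.1 (percentile 94.9). Its summit lay 73 bp from the middle of the forkhead motif. That motif was present in 3.17% of RefSeq promoters, the E-box in 6.02% and the E'-box in 3.85%.

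GR at the *Cry1* start, chr10:85184789-85185715, was uneven. Its percentiles were 89.8 and 35.0 under ctrl. and 95.4 and 30.8 under CORT, against a weak peak of 5.69 in cal. res. replicate 2 and none in replicate 1. The site was thus held by ctrl. and CORT and not by cal. res., the group in which FOXO1 was mapped to the same bases. The share of all sites held in this way was not computed. As given above, sites at starts in general ranked lowest in the cal. res. libraries. An intronic site at +23.1 kb, chr10:85161717-85162255, had no peak in either ctrl. library and percentiles of 56.9 and 43.1 under cal. res. and 27.2 and 28.9 under CORT. It was the only site of the 5 genes held by cal. res. with no ctrl. peak, 1 of 61 against 0.842% of all sites. Its window held TAGGTCA, the core of the element bound by ROR and REV-ERB receptors, which 2.73% of all sites had. The site at -2.5 kb was in 5 lists, missing from ctrl. replicate 2.

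*Cry2* (chr2:92403646-92434043, minus strand, ENSMUSG00000068742.11) had the lowest mean percentile over the 6 lists at its leading site, 65.7. The site, chr2:92432212-92433127, lay in an intron 1.1 kb into the gene. Shown is this window, around its strongest summit, with 1 AGAACA hexamer in capitals. The hexamer lies at the edge of the window, and the 200 bp around the median summit of the 6 lists held none. Shown too are the window of the start site with its E'-box in capitals and that of an intronic site at +13.5 kb. The latter has a palindrome of 2 mismatches centred 1 bp from the summit (capitals, the palindrome with its 3 middle bases).

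Cry2 intron, +1.1 kb, chr2:92432818-92433017, minus strand: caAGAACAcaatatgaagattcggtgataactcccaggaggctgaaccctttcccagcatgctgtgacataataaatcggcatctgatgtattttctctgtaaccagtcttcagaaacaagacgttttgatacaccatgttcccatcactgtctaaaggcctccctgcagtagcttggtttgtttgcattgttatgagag
Cry2 start, chr2:92434135-92434334, minus strand: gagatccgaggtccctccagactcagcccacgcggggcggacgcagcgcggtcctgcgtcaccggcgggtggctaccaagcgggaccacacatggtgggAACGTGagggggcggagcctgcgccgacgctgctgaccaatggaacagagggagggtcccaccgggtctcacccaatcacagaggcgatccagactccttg
Cry2 intron, +13.5 kb, chr2:92420482-92420681, minus strand: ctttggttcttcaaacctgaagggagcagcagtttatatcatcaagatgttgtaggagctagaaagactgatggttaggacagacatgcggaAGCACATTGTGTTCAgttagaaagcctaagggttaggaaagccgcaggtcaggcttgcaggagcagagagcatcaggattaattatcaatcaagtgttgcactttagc

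Percentiles of the +1.1 kb site were 39.7 and 43.4 under ctrl., 73.2 and 75.1 under cal. res. and 89.4 and 73.2 under CORT. It was the only site of the 5 genes in which both cal. res. libraries lay above both ctrl. libraries (74.1 ± 1.35 against 41.6 ± 2.63, SD, n = 2 each; exact permutation p = 0.333), and CORT lay above ctrl. as well (81.3 ± 11.5, exact permutation p = 0.333). The caller's fold enrichment was 4.98 and 4.33 under ctrl., 8.40 and 7.35 under cal. res. and 16.1 and 8.21 under CORT, values that can be compared only within a list. Ranked over the 8097 shared sites only, CORT overlapped ctrl. and cal. res. stayed above, as it then did at the +13.1 kb *Per2* site too. The start site, chr2:92433583-92434845, had 81.8 and 32.9 under ctrl., 28.5 and 50.3 under cal. res. and 81.5 and 90.8 under CORT. Its E'-box was centred 0.5 to 37.5 bp from the GR summits of the 6 lists. The +13.5 kb site, whose palindrome was nearest to its summit of those shown, was in 3 lists only, at 37.2 in ctrl. replicate 1 and 18.7 and 66.3 under CORT. Palindromes with up to 2 mismatches were found at 2 of the 61 sites (3.35% of all sites) and with up to 3 at 12 (15.6%). FOXO1 did not overlap the start or the +1.1 kb site. Its 2 *Cry2* regions, 4.0 and 12.8 kb upstream, were at percentiles 2.44 and 0.88 of the FOXO1 list, the lowest of the 10. The GR site under the farther region, chr2:92445878-92447114, was held by cal. res. (76.2 and 56.9) and CORT (69.6 and 60.4) and had a peak of 78.9 in ctrl. replicate 1 and none in replicate 2. The nearer region overlapped a GR site of CORT replicate 2 alone (34.1).

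**Figure D3:**
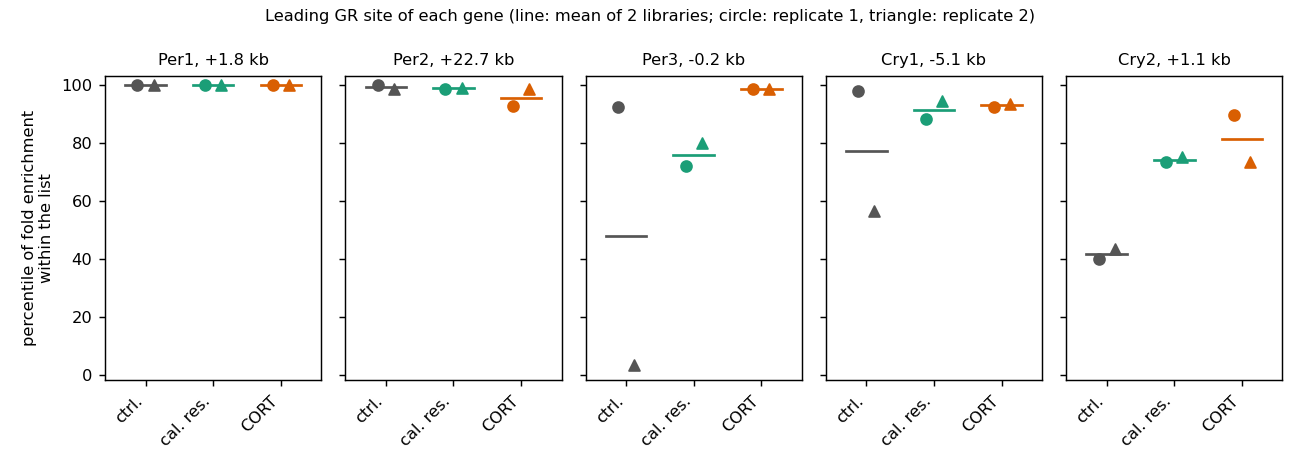
Within-list percentile of fold enrichment at the leading GR site of each gene, 1 point per library with a line at the mean of each group of 2. Per1 and Per2 stay above 92 in every library, the Per3 and Cry1 values of ctrl. spread widest, and at Cry2 both ctrl. libraries lie below the other 4.

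Among the 61 sites together, 16 were held by ctrl., against 21.4% of all sites. Cal. res. held 21 (27.9% of all sites) and CORT 32 (43.7%). A peak in all 6 lists, which is the same as being held by all 3 groups, was found at 15 sites (15.7% of all sites). Sites held by cal. res. and not by ctrl. numbered 6 (11.5%), 4 of them in *Cry1* or *Cry2*. Sites held by CORT and not by ctrl. numbered 16 (24.3%), and 3 of these had no ctrl. peak at all (4.28%). In percent the 3 groups held 26.2, 34.4 and 52.5 of the members, each somewhat above its background, a difference that was not tested.

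**Figure D4:**
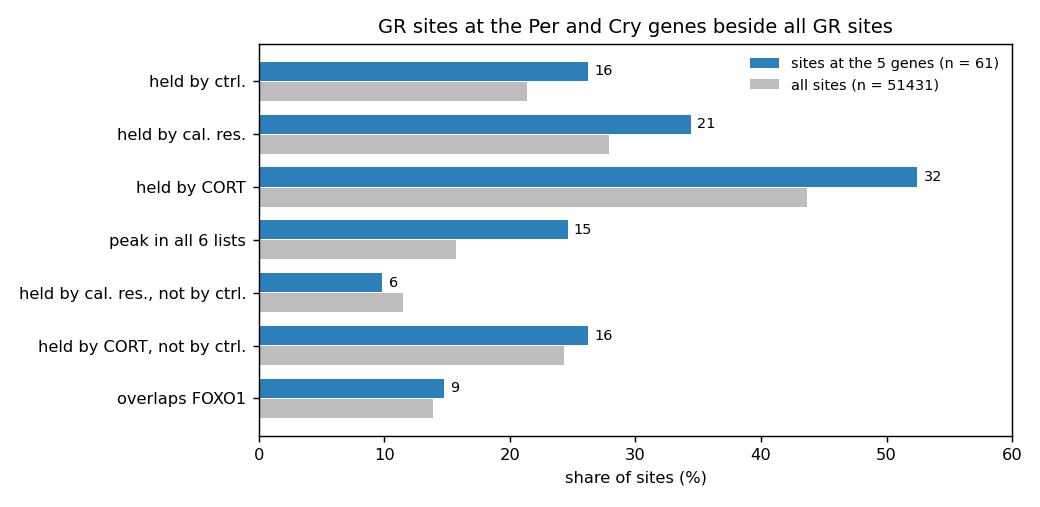
Share of the 61 GR sites at the 5 genes (blue, with their number) and of all 51431 GR sites (grey) that each group held in both libraries, that had a peak in all 6 lists, that were held by one treated group and not by ctrl., or that overlapped a FOXO1 region. The blue and grey bars lie closest for FOXO1 overlap, 9 of 61 against 13.9%.

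Per library, 35 and 16 of the 61 sites had a peak in ctrl., 26 and 26 under cal. res. and 35 and 54 under CORT. The ctrl. replicates differed by more than the group means of ctrl. and cal. res., 25.5 ± 13.4 and 26 ± 0 (SD, n = 2 each; exact permutation p = 1). CORT had 44.5 ± 13.4, which was 19 more than ctrl. (exact permutation p = 0.667) and 18.5 more than cal. res. (exact permutation p = 0.333). The longest list, CORT replicate 2, had the most. Per 10000 sites of a list, the members made up 10.1 and 13.9 under ctrl., 12.5 and 15.0 under cal. res. and 12.7 and 14.3 under CORT, where the groups overlapped. In 1 list only were 23 of the 61 sites (37.4% of all sites), and 20 of these were in a CORT list, against 61.1% of all such sites.

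The order of percentiles between groups was counted over the sites with a peak in all 4 libraries compared. Both cal. res. libraries lay above both ctrl. libraries at 1 of 15 sites (6.67%, against 11.4% of all sites with the 4 peaks) and below at 1 (6.67% against 21.1%). CORT lay above ctrl. at 2 of 16 (12.5% against 27.1%) and below at 1 (6.25% against 5.72%). CORT lay above cal. res. at 12 of 20 (60% against 43.0%) and below at 2 (10% against 9.09%), the leading *Per2* site and the +23.1 kb *Cry1* site. The 12 were found at all genes except *Cry1*. A percentile depends on how many weak regions a list holds, so the 15 sites in all 6 lists were also ranked among the 8097 such sites. CORT was then above cal. res. at 4 (25.6%) and below at 1 (29.3%). Against ctrl., cal. res. was above at 2 (21.0%) and below at 5 (21.0%), and CORT was above at 4 (19.2%) and below at 4 (19.6%).

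**Figure D5:**
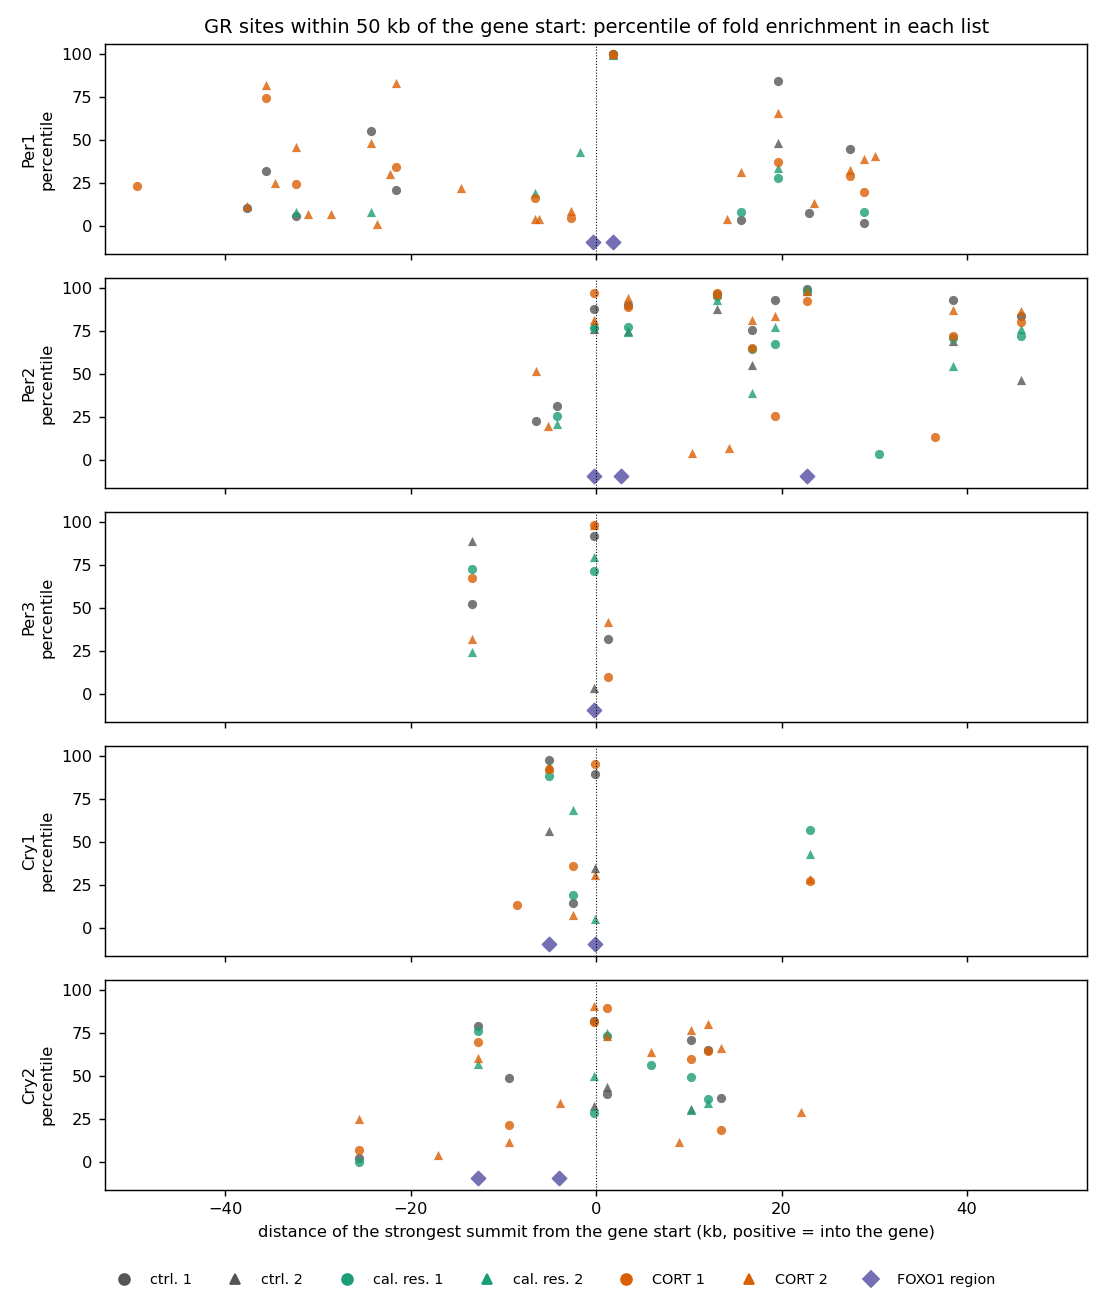
Within-list percentile of every GR peak at the 61 sites, against the distance of the site's strongest summit from the gene start in kb; colours give the group, circles replicate 1, triangles replicate 2 and diamonds the 10 FOXO1 regions. Per1 has 1 dominant site among many weak ones, Per2 a row of sites inside the gene, and Per3 and Cry1 few sites near the start.

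FOXO1 overlapped 9 of the 61 sites (13.9% of all sites). Among the 15 sites in all 6 lists it overlapped 6, against 50.7% of such sites in the series. All 10 FOXO1 regions at the 5 genes overlapped a GR site, as did 93.6% of all FOXO1 regions. By fold enrichment the FOXO1 order was *Cry1* upstream (15.7), *Cry1* start (14.1), *Per1* start (13.6) and *Per3* start (10.2), then *Per2* intron (7.60), *Per2* start (6.41), *Per1* +1.9 kb (5.72) and 3 regions under 5. The order among GR sites was another one: the +1.9 kb *Per1* site was first in every list. The exact letters GTAAACA were present in the windows of 3 of the 61 sites (5.20% of all sites), and AGAACA in 13 (18.4%). Looser forkhead sites are outside this count, such as the predicted FOXO1 site in the upstream *Cry1* window that the authors mutated in a reporter. In the paper, mutating the predicted sites removed the synergistic activation by GR and FOXO1.

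Other clock genes gave a frame for these values. All 21 on the list used were found, with a median of 7 sites against 3 for all genes. A site held by ctrl. was found at 18, by cal. res. at 17 and by CORT at 18 of them, against 48.6%, 47.2% and 60.9% of all protein-coding genes, and a FOXO1 site at 16, against 31.2%. More sites were held by cal. res. than by ctrl. at 4 of the 21 (20.6% of all genes) and fewer at 5 (15.8%). For CORT these were 11 (46.5%) and 3 (3.25%). *Ciart*, a repressor of the same loop, had the most sites, 18, and *Rora* and *Csnk1e* the fewest, 1 each. The genes whose highest percentile over the 6 lists was closest to each member, by Euclidean distance, were *Med29*, *Paf1* and *Plekhg2* for *Per1*, which had the same values as each other (distance 0.0912). They were *Ces3b*, *Ces4a* and *Cmah* for *Per2*, *Abtb1*, *Podxl2* and *Cops7a* for *Per3*, *Sumf1*, *Ch25h* and *Lipa* for *Cry1*, and *Tars*, *4933430I17Rik* and *Alad* for *Cry2*.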

How the data were processed

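GR was mapped by ChIP-seq in 6 libraries of mouse liver (grouped by their titles, 2 per group) and FOXO1 in 2 cal. res. libraries. The authors aligned the reads to mm10 with BWA, removed duplicates with Picard, ran MACS2 on read pairs and removed blacklisted regions with bedtools. GR peaks were called per library and FOXO1 peaks on merged reads. Use of an input control was not given in the sources used here. The deposited lists hold, for each summit, the fold enrichment (a ratio of pileup to local background), -log10 p-value, -log10 q-value and the offset of the summit. Fold values are comparable only within a list. The largest q-value was 0.0994 to 0.0998 in the GR lists and 9.84e-06 in the FOXO1 list.

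Rows with the same interval were reduced to the strongest summit. Percentiles are mid-ranks of fold over distinct regions, and held means a peak in each library of the group. The rule of the study also uses read counts, which were not analysed here. Coordinates were checked against GRCm38, and 0 peak ends lay beyond a chromosome. Pileups were rebuilt from fold and p-value (at least 99.9% of 1000 summits per list matched within 0.001 in -log10 p). Motifs were searched on both strands in 200 bp around the strongest summit. RefSeq promoters matched 4 of the 5 members, *Per2* not among them. E-box and E'-box differ in their last letter.

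Counts per library were compared by two-sided exact permutation tests over libraries, which measure only the spread between these samples. No test was run over sites, since sites are not replicates. Named sites are the leading site of each gene (most lists, then highest mean percentile) and the sites that overlap FOXO1; other sites were named after their values were seen. Genes most alike had the smallest Euclidean distance of the highest percentile over 6 lists, without genes within 100 kb of a member. Members, gene lists and tests were chosen with earlier results of these data known. Alternatives were other windows, thresholds, overlaps, list sizes, rankings and left-out libraries. The scripts were tested on simulated data. The software was matplotlib 3.10.9, SciPy 1.17.1, pandas 2.3.3, NumPy 2.4.6 and Python 3.11.15.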

Additional observations from a re-analysis of the deposited data

How the results depend on the processing

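Numbers of peaks followed the length of the lists. With the 12458 regions of smallest p-value in each library, CORT had 1 site more than ctrl. per library and the difference to cal. res. turned to -1, and CORT held 15 sites in place of 32. With a q-value of at most 1e-05, the held sites fell to 9 for ctrl., to 12 for cal. res. and to 17 for CORT, and cal. res. minus ctrl. was 0. That difference was 0 also with an overlap of 50% of the smaller interval, and -2 with a window of 100 kb. With a peak in either library, ctrl. held 35 sites and CORT 57.

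Leaving out 1 library at a time, cal. res. minus ctrl. ranged from -9 (without ctrl. replicate 2) to 10 (without ctrl. replicate 1), CORT minus ctrl. from 8.5 to 29 and CORT minus cal. res. from 8.5 to 28. Sites held ranged from 16 to 35 for ctrl., from 21 to 26 for cal. res. and from 31 to 54 for CORT, the highest values being those without ctrl. replicate 2 and without CORT replicate 1, where a single library decides. FOXO1 overlap was 9 in every case. Against the ctrl. library of the same name style, cal. res. had 10 sites more and CORT 9.5 more.

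By -log10 p, cal. res. lay below ctrl. at 3 sites, CORT below ctrl. at 0 and CORT below cal. res. at 1. Ranked among the sites in all 6 lists, chosen after seeing the data, cal. res. lay above ctrl. at 2 and below at 5, CORT above ctrl. at 4 and below at 4, and CORT above cal. res. at 4 and below at 1. The cause of these changes was not tested, except that the last ranking covers 15 sites.

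With the replicate number as a replicate block, the differences of 0.5, 19 and 18.5 had exact permutation p-values of 1, 1 and 0.5. The labels give no reason to treat equal numbers as a pair. Weak peaks in short lists cannot be told from absent ones, since read depth was not analysed.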
